A study of Mus musculus and synthetic construct with 3 samples.

Results

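Collagen hexagons were 12 μm-sided hexagonal areas of mouse aorta in which the RNA of fibroblast matrix genes was ahead of that of contractile genes. They were chosen by their own UMI counts (a UMI is a tag that marks 1 captured RNA molecule): the summed UMIs of Col1a1, Col1a2, Dcn, Lum and Fbln1 had to be 3 or more and above the sum of Acta2, Tagln, Myl9, Myh11 and Csrp2. Of 11689 hexagons with 50 or more genes detected in 20 sections, 920 met this rule. The AAA animals were male Apoe-/- mice, 16 weeks old by the labels, with a subcutaneous minipump that delivered AngII (angiotensin II, labelled 1000 ng/ml) for 4 weeks and with an abdominal aortic aneurysm (AAA). The study's results text repeats both label values. Its methods section gives a younger age and states the dose per body weight and minute, so both label values are in doubt. Of 5 AngII mice 3 had an AAA, and the sequenced aneurysms come from those 3. Controls were 3 mice of the same strain, sex, age and diet with saline pumps, and both groups lacked Apoe and ate a normal diet. Suprarenal abdominal aortas were embedded in pairs, an AAA aorta with a control aorta, and 10 sections of each condition lay on a single Seq-Scope array, which captures polyadenylated RNA at barcodes of known position.

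Fibroblasts make most of the fibrous matrix of the aortic wall and in the normal artery lie mainly in the adventitia, the outer layer. Type I collagen, the main tensile fibre, is a trimer of chains encoded by Col1a1 and Col1a2, and it assembles together with type III collagen (Col3a1). Dcn and Lum encode decorin and lumican, small proteoglycans that bind collagen fibrils and control their width, and Fbln1 encodes fibulin 1, a glycoprotein of elastic fibres and basement membranes. A hexagon can hold parts of several cells, so the values describe small regions and not single fibroblasts. On the mouse build mm10, with coordinates from the GENCODE annotation of that build, Dcn (chr10:97479609-97518143, forward strand) and Lum (chr10:97565128-97572703, forward strand) are neighbours on chromosome 10. Col1a1 lies at chr11:94936224-94953042, Col1a2 at chr6:4504814-4541544, Fbln1 at chr15:85205949-85286535 and Col3a1 at chr1:45311538-45349706, all on the forward strand.

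Depth per hexagon was low, and its medians did not differ beyond their spread between conditions (exact permutation p = 0.5). The kept hexagons held 180800 to 524361 exonic UMIs per AAA mouse and 30161 to 58947 per control mouse, and the median per kept hexagon was 79, 78 and 70 UMIs in AAA mice 1, 2 and 3, against 78, 70 and 66 in control mice 1, 2 and 3. Collagen hexagons of AAA mice were deeper than that, with medians of 128.5, 128.5 and 84 UMIs, against 76, 77 and 69 in the other hexagons of these mice. Those of control mice 1, 2 and 3 had medians of 77, 74.5 and 58.5 UMIs, against 78, 70 and 67 in their other hexagons. A rule that asks for 3 UMIs can select deeper hexagons, so shares are also given after thinning. Apoe, the gene that all these mice lack by their label, was detected in AAA mice and in control mice, at 4553, 5317 and 4729 UMIs per 1000000 UMIs outside the rule genes in the collagen hexagons of AAA mice 1, 2 and 3, against 5182, 5302 and 5139 in their other hexagons. The other hexagons of control mice 1, 2 and 3 held 276, 162 and 134 Apoe UMIs. The counts do not say which part of the gene these UMIs come from, so they do not check the genotype.

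Collagen hexagons made up a larger share of the aneurysmal than of the control wall in all 3 mice of each group. AAA mice had 600 of 5546 (10.8%), 96 of 1975 (4.86%) and 207 of 2710 (7.64%) kept hexagons in this class, against 9 of 653 (1.38%), 4 of 390 (1.03%) and 4 of 415 (0.964%) in control mice. The groups did not overlap. The mean was 7.77% ± 2.98 in AAA and 1.12% ± 0.224 in control mice (SD, n = 3 each), a difference of 6.65 percentage points with p = 0.1 by an exact two-sided permutation test over mice, the smallest p that 3 against 3 allows. In total 903 collagen hexagons with 121494 UMIs came from AAA aortas and 17 with 1568 UMIs from control aortas. More fibroblasts and more RNA per fibroblast cannot be told apart in such sums.

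The sections showed the same separation. All 10 AAA sections, at 1.80% to 12.3%, lay above the highest control section, at 1.71%, and 3 of the 10 control sections had no collagen hexagon. In AAA mouse 1 the sections held 240, 246 and 114 collagen hexagons, in AAA mouse 2 they held 34, 5 and 57, and in AAA mouse 3 they held 102, 44, 19 and 42. The lowest AAA section, the second of mouse 2, was thus close to the highest control section. When every kept hexagon was thinned to 50 UMIs, the share by the same rule was 2.32% ± 1.03 in AAA and 0.501% ± 0.255 in control mice (SD, n = 3 each), again without overlap (exact permutation p = 0.1). Sections of 1 mouse are not replicates, and no test was run over them.

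**Figure D1:**
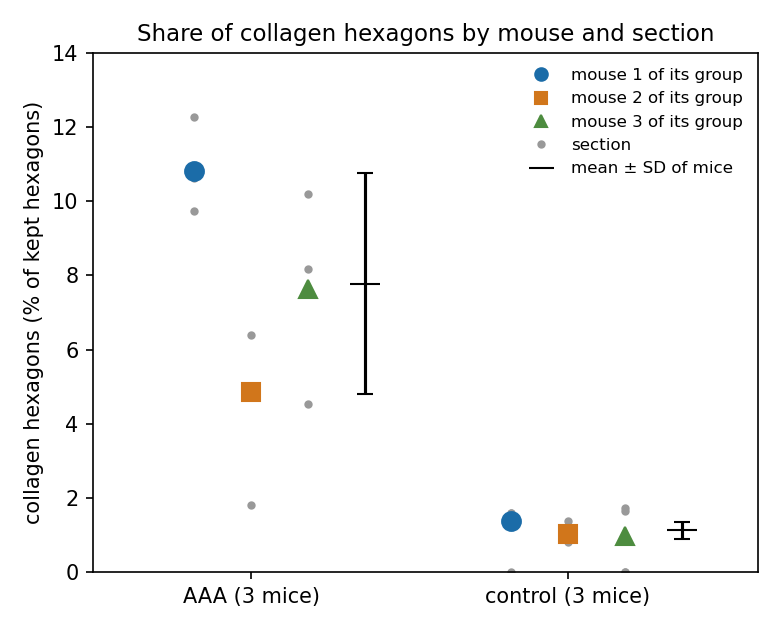
Collagen hexagons as a percentage of all kept hexagons (y axis) in AAA mice (left) and control mice (right); coloured symbols are mice, grey dots are sections, and the bar is the mean ± SD over mice. The 3 AAA mice lie at 4.86% to 10.8% and the 3 control mice at 0.964% to 1.38%.

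Contractile hexagons, those with 3 or more contractile UMIs and a contractile sum above the collagen sum, gave the opposite picture. They made up 6.89%, 5.01% and 10.4% of kept hexagons in AAA mice 1, 2 and 3, against 29.7%, 17.7% and 26.7% in control mice 1, 2 and 3. Over all kept hexagons, the 5 collagen rule genes supplied 0.912% ± 0.174 of UMIs in AAA and 0.499% ± 0.0841 in control mice, and the 5 contractile rule genes 0.925% ± 0.243 in AAA and 2.13% ± 0.443 in control mice (SD, n = 3 each). These are the genes of the rule, and the values are a description. Since the rule asks that collagen UMIs exceed contractile UMIs, a lower contractile level enters the share of collagen hexagons as well. Without that condition the share was 11.1%, 4.86% and 7.97% in AAA mice 1, 2 and 3, against 3.06%, 1.54% and 1.45% in control mice 1, 2 and 3.

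The rule genes themselves describe how the hexagons were chosen and carry no test. Levels are given as CPM, the UMIs of a gene per 1000000 UMIs of the same hexagons, and for the rule genes these are all UMIs of kept genes. Col1a2 had 11998, 11449.6 and 20052 CPM in the collagen hexagons of AAA mice 1, 2 and 3, against 2559.7, 2052 and 3260.1 in their other hexagons. Col1a1 gave 6473, 3958 and 9874 against 1433, 1224 and 1712, Dcn 4829, 4947 and 4557 against 1069, 1014 and 879, Lum 2466, 2332 and 3393 against 527, 480.0 and 566, and Fbln1 4144, 2968 and 2987 against 685, 768 and 488. Mouse 3 had the highest type I collagen level and mouse 2 the lowest, whereas Dcn was nearly level across the 3 mice. Most collagen hexagons passed on few molecules: of 903 in AAA mice, 436 (48.3%) had exactly 3 collagen UMIs, 140 (15.5%) had 6 or more, and the highest sum was 16. A Col1a2 UMI was present in 751 of them (83.2%), Col1a1 in 487 (53.9%), Dcn in 399 (44.2%), Fbln1 in 316 (35.0%) and Lum in 243 (26.9%). Of these hexagons 105 (11.6%) owed their place to a single rule gene, 402 to a pair of them, and 8 held UMIs of all 5.

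Contractile UMIs were low in the collagen hexagons, as the rule requires, but not absent. Acta2 (smooth muscle actin) had 2317, 2332 and 3038 CPM in the collagen hexagons of AAA mice 1, 2 and 3, against 4501, 3702 and 6119 in their other hexagons. Myh11, the smooth muscle myosin heavy chain, was close to 0, with 3, 0 and 1 UMIs in the collagen hexagons. No contractile UMI of the 5 rule genes was found in 52.2%, 50% and 54.6% of collagen hexagons of AAA mice 1, 2 and 3, against 51.7%, 55.9% and 47.7% of their other hexagons.

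Genes outside the rule were read as CPM of all UMIs other than those of the 10 rule genes, and as the ratio of collagen hexagons to the other kept hexagons of the same mouse. Because the hexagons were chosen on the same molecules, these ratios are a description. Of 2473 genes with 10 or more UMIs in the collagen hexagons of AAA mice, 431 (17.4%) had a ratio above 1 and 279 (11.3%) a ratio below 1 in all 3 mice, and the median ratio of all 2473 was 1.10. Of the 167 genes that reached 10 UMIs there in each AAA mouse, 55 were above 1 and 23 below 1 in all 3 mice. A gene enters these counts through its UMIs in the collagen hexagons themselves, which favours ratios above 1. The counts of the lists below are therefore read beside both backgrounds and support nothing by themselves. Only 8 genes outside the rule reached 50 UMIs in the collagen hexagons of each AAA mouse. By mean ratio Col3a1 led these 8, which also held Cst3, Mgp, Eef1a1, Actb, Mptx1, Apoe and Alb.

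Col3a1, the type III collagen chain that assembles with type I fibres, had the highest mean ratio of these 8 genes. It had 936, 103 and 272 UMIs in the collagen hexagons of AAA mice 1, 2 and 3, which gave 11068, 7502 and 14454 CPM, against 5698, 5071 and 6104 in their other hexagons. The ratio was 1.94, 1.48 and 2.37, a mean of 1.93 ± 0.444 (SD, n = 3 mice). Every AAA mouse had its higher value in the collagen hexagons, and their lowest level, in mouse 2, was above the highest level of the other hexagons. The remaining fibrillar collagens were rare: Col5a2 had 26, 6 and 4 UMIs with ratios of 1.61, 3.13 and 1.07, and Col5a1 had 24, 0 and 3. In the fibrillar collagen list, of 3 genes with 10 or more UMIs, 2 were above 1 and 0 below 1 in all 3 mice.

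Several genes that process collagen were also higher in the collagen hexagons, each on few molecules. Pcolce, which speeds the removal of the procollagen C-terminal propeptide, had ratios of 2.02, 3.33 and 2.50 in AAA mice 1, 2 and 3 on 65, 10 and 18 UMIs. Loxl1, a lysyl oxidase that crosslinks elastin, had ratios of 1.32, 2.06 and 3.29, and P4hb, the protein disulfide isomerase that is also a subunit of prolyl 4-hydroxylase, 1.30, 1.65 and 1.51. Serpinh1, the collagen chaperone of the endoplasmic reticulum, was above 1 in mice 1 and 2 only (1.28, 1.74 and 0.691). In this list of 15 genes, of 10 genes with 10 or more UMIs, 3 were above 1 and 1 below 1 in all 3 mice. The summed level of the list was 1.45, 1.56 and 1.49 times that of the other hexagons. The 14 genes of the general endoplasmic reticulum and secretory list lay nearer to 1, at 1.08, 1.11 and 1.13, and its most abundant gene, the chaperone gene Hspa5, had ratios of 0.872, 1.64 and 1.69.

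Collagens that form networks, beaded filaments or fibril surfaces were uneven. Col14a1, a fibril-associated collagen, had 993, 364 and 1275 CPM in the collagen hexagons of AAA mice 1, 2 and 3, against 481, 426 and 388 in their other hexagons. The type VI chain Col6a3 had ratios of 1.55, 1.54 and 1.14, and Col6a1 1.79, 1.14 and 1.33 on 32, 2 and 5 UMIs. The basement membrane collagens did not share this: Col4a1 had ratios of 0.968, 0.648 and 1.23, and Col18a1 was below 1 in all 3 mice (0.408, 0.705 and 0.450). Among network and beaded collagens, of 9 genes with 10 or more UMIs, 4 were above 1 and 1 below 1 in all 3 mice.

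Among the small proteoglycans outside the rule, Bgn (biglycan) was the most abundant, at 4446, 2986 and 4569.9 CPM in collagen hexagons of AAA mice 1, 2 and 3, against 3442, 2858 and 4248 in their other hexagons. Its ratios were 1.29, 1.05 and 1.08. Prelp, a related leucine-rich protein of connective tissue, had ratios of 1.57, 1.62 and 1.48, above 1 in all 3 mice on 54, 10 and 13 UMIs. Ogn (osteoglycin) had ratios of 1.66, 0.826 and 1.90 on 33, 2 and 9 UMIs, so that mouse 2 went the other way on 2 molecules. In the small proteoglycan list, of 4 genes with 10 or more UMIs, 2 were above 1 and 0 below 1 in all 3 mice.

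Elastic fibre genes split between elastin and several accessory proteins in AAA mice 1 and 3, but not in mouse 2. Eln, elastin itself, had 733, 1238 and 1275 CPM in the collagen hexagons of AAA mice 1, 2 and 3, against 1258, 985 and 1626 in their other hexagons, lower in mice 1 and 3 and higher in mouse 2. Mfap4, a microfibril-associated protein, had ratios of 2.15, 1.64 and 1.33, and the latent TGF-β binding protein gene Ltbp2 had ratios of 1.20, 1.14 and 1.12. Mfap5, another microfibril gene and also a marker of adventitial fibroblasts, had ratios of 1.48, 1.06 and 1.39. For elastic fibre genes, of 9 genes with 10 or more UMIs, 6 were above 1 and 0 below 1 in all 3 mice.

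Abundant glycoproteins of the wall went in both directions. Mgp (matrix Gla protein, an inhibitor of calcification) had 15715, 15369 and 23009 CPM in collagen hexagons of AAA mice 1, 2 and 3, against 13076, 12506 and 19922 in their other hexagons, and mouse 3 was highest in both classes. The ratios of Mgp were 1.20, 1.23 and 1.15, and those of Sparc, a collagen-binding matricellular protein, 1.14, 1.06 and 1.22. Fn1 (fibronectin) was below 1 in all 3 mice, with 2613, 2258 and 2285 CPM in collagen hexagons, against 3075, 2620.5 and 4117 in the other hexagons. Ccn2, a matricellular growth factor gene, had ratios of 0.626, 0.604 and 0.449, also below 1 throughout. Comp (cartilage oligomeric matrix protein, which binds collagen fibrils) was rarer, with 66, 13 and 19 UMIs and ratios of 1.99, 2.05 and 3.06. Across the glycoprotein list, of 12 genes with 10 or more UMIs, 6 were above 1 and 3 below 1 in all 3 mice.

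Fibroblast markers that the rule did not use were read as a description, and they are not an independent check of the label. Hexagons chosen on fibroblast matrix genes favour other genes expressed with them. The paper lists Cst3 and Gpx3, and Col3a1, C3, Igfbp4 and Loxl1, among the markers of its collagen fibroblast cluster in these same data. Mgp, Sparc and Bgn are listed for that cluster too. In the adventitial fibroblast list, of 17 genes with 10 or more UMIs, 8 were above 1 and 0 below 1 in all 3 mice. The background was 17.4% above and 11.3% below among all 2473 genes. Among the 167 genes with 10 or more UMIs in each AAA mouse it was 55 above and 23 below. Cst3, the secreted protease inhibitor cystatin C, had 8455, 4589 and 7705 CPM in collagen hexagons of AAA mice 1, 2 and 3, against 5289, 4797 and 4845 in their other hexagons, so mouse 2 did not share the difference. Gpx3, an extracellular glutathione peroxidase, had 2270.4, 1602 and 1169 CPM in collagen hexagons of AAA mice 1, 2 and 3, against 1068, 1107 and 661 in their other hexagons. Serpinf1, the secreted factor PEDF, had ratios of 1.70, 3.69 and 3.02, and Pi16, a marker of an adventitial fibroblast population, 1.69, 2.51 and 1.07 on 74, 13 and 4 UMIs. Pdgfra, a growth factor receptor of fibroblasts, had 8, 1 and 5 UMIs with ratios of 1.13, 0.922 and 2.81, and Dpt, the matrix protein dermatopontin, had 37, 3 and 3 with ratios of 1.66, 0.631 and 0.633. Gpx3 and Serpinf1 were thus above 1 in all 3 mice and Cst3 in mice 1 and 3, while Pi16 rested on 4 UMIs in mouse 3, and Pdgfra and Dpt on at most 5 in mice 2 and 3.

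Several complement genes and genes of insulin-like growth factor binding had ratios above 1 in all 3 mice. C3, the central complement component, had 401, 52 and 46 UMIs in the collagen hexagons of AAA mice 1, 2 and 3, which gave 4742, 3788 and 2444 CPM, against 2454, 2529 and 1715 in their other hexagons. Ratios were 1.93, 1.50 and 1.43 for C3 and 1.29, 1.65 and 1.53 for C4b (complement C4). Serping1, the C1 inhibitor, had ratios of 1.50, 3.24 and 2.03 on 34, 10 and 8 UMIs, and the 10 of mouse 2 all came from 1 section. Clu (clusterin) went the other way, at 0.642, 0.900 and 0.659. Igfbp4, which binds insulin-like growth factors in the extracellular space, had 4919, 5754 and 2497 CPM in collagen hexagons of AAA mice 1, 2 and 3, against 2831, 2918 and 1804 in their other hexagons. Its ratios were 1.74, 1.97 and 1.38. Igf1, the growth factor itself, had ratios of 1.54, 2.79 and 1.59 on 39, 10 and 8 UMIs, and Igfbp6 had 2.07, 1.25 and 1.27. Igfbp7 did not show this, at 1.21, 0.965 and 0.509. In the complement and inhibitor list, of 12 genes with 10 or more UMIs, 6 were above 1 and 2 below 1 in all 3 mice, and in the growth factor binding list, of 5 genes with 10 or more UMIs, 3 were above 1 and 0 below 1 in all 3 mice.

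Proteases were measured on few molecules. Mmp2 (gelatinase A) had 67, 3 and 8 UMIs in AAA mice 1, 2 and 3 and ratios of 2.43, 0.799 and 0.977, so that its pooled ratio of 1.95 came from mouse 1. Mmp3 (stromelysin 1) had 11, 3 and 5 UMIs and ratios of 2.24, 3.27 and 1.95. The inhibitor genes Timp2 and Timp1 had ratios of 1.23, 1.25 and 1.22 and 1.22, 1.81 and 1.45, and Timp3, an inhibitor bound to matrix, 0.823, 0.292 and 0.765. Among proteases and inhibitors, of 5 genes with 10 or more UMIs, 3 were above 1 and 1 below 1 in all 3 mice, and Mmp12 had no UMI in the collagen hexagons.

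**Figure D2:**
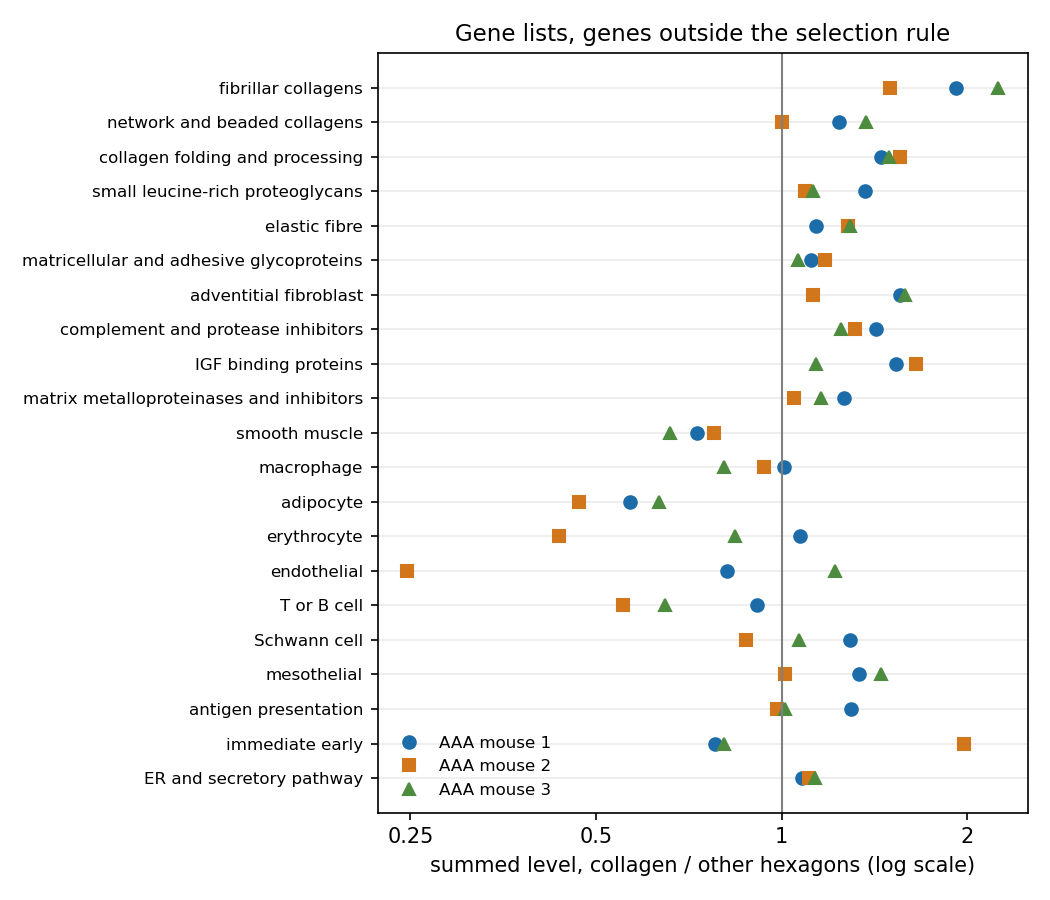
Summed CPM of 21 gene lists in collagen hexagons divided by the same in other kept hexagons (log x axis) for AAA mice 1, 2 and 3; rule genes are left out of each list. Fibrillar collagens lie at 1.50 to 2.24 and adipocyte genes at 0.470 to 0.633.

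Markers of other cells were followed over their whole lists, and their part in the values above was not tested. Adipocyte genes were the most depleted: of 9 genes with 10 or more UMIs, 8 were below 1 in all 3 mice, among them Cfd (adipsin; 0.496, 0.397 and 0.441), Fabp4 (fatty acid binding; 0.478, 0.111 and 0.417), Lpl (lipoprotein lipase; 0.442, 0.614 and 0.658) and Scd1 (fatty acid desaturation; 0.863, 0.685 and 0.765). Smooth muscle genes outside the rule were also lower: 6 of 11 were below 1 in all 3 mice and none was above. Cpe (carboxypeptidase E) had ratios of 0.598, 0.735 and 0.666, Flna (filamin A) 0.501, 0.926 and 0.404 and Myl6, a myosin light chain of many cells, 0.891, 0.622 and 1.02. The summed smooth muscle list was 0.730, 0.777 and 0.660 times the level of the other hexagons.

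Macrophage genes were present at about the level of the surrounding wall, with summed ratios of 1.01, 0.935 and 0.806 over 19 genes in AAA mice 1, 2 and 3. Over the macrophage list, of 18 genes with 10 or more UMIs, 2 were above 1 and 3 below 1 in all 3 mice. Ctsb (cathepsin B) had ratios of 0.849, 0.347 and 0.531 and Gpnmb, a lysosomal membrane glycoprotein, 0.924, 0.527 and 0.526, below 1 throughout, whereas C1qa and Adgre1 were above 1 in all 3 mice, at 1.59, 1.82 and 1.28 and 1.56, 2.57 and 2.25 (Adgre1 encodes F4/80), Adgre1 on 12, 3 and 4 UMIs. In the antigen presentation list, of 7 genes with 10 or more UMIs, 1 was above 1 and 0 below 1 in all 3 mice, and the gene above was H2-Ab1, an MHC class II chain, at 1.69, 1.71 and 1.48. Cd74, its invariant chain, had ratios of 1.84, 0.811 and 1.70. T and B cell genes held 133 UMIs in all, of which Igkc had 77, 6 and 10, and Cd79b and Ms4a1 were at 0. Endothelial genes held 72 UMIs, with Pecam1 at 9, 0 and 1. The 6 mesothelial genes held 64 UMIs, with summed ratios of 1.33, 1.01 and 1.45 in AAA mice 1, 2 and 3. Of 2 such genes with 10 or more UMIs, 1 was above 1 and 0 below 1 in all 3 mice, while Upk3b and Lrrn4 were at 0.

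RNA of genes from other organs was present in both classes. Alb, the gene of liver-made serum albumin, had 7556, 8668 and 8183 CPM in the collagen hexagons of AAA mice 1, 2 and 3, against 8936, 9150.3 and 8668 in their other hexagons, and Mptx1, an intestinal pentraxin gene, had 5368, 5390.1 and 5686 against 6031, 6068 and 5816. Neither is a gene of the aortic wall. Their ratios, at 0.846, 0.947 and 0.944 for Alb and 0.890, 0.888 and 0.978 for Mptx1, were at or a little below 1. Any gene with a ratio above 1 in all 3 mice, such as Col3a1 or C3, exceeds both, which supports nothing by itself.

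**Figure D3:**
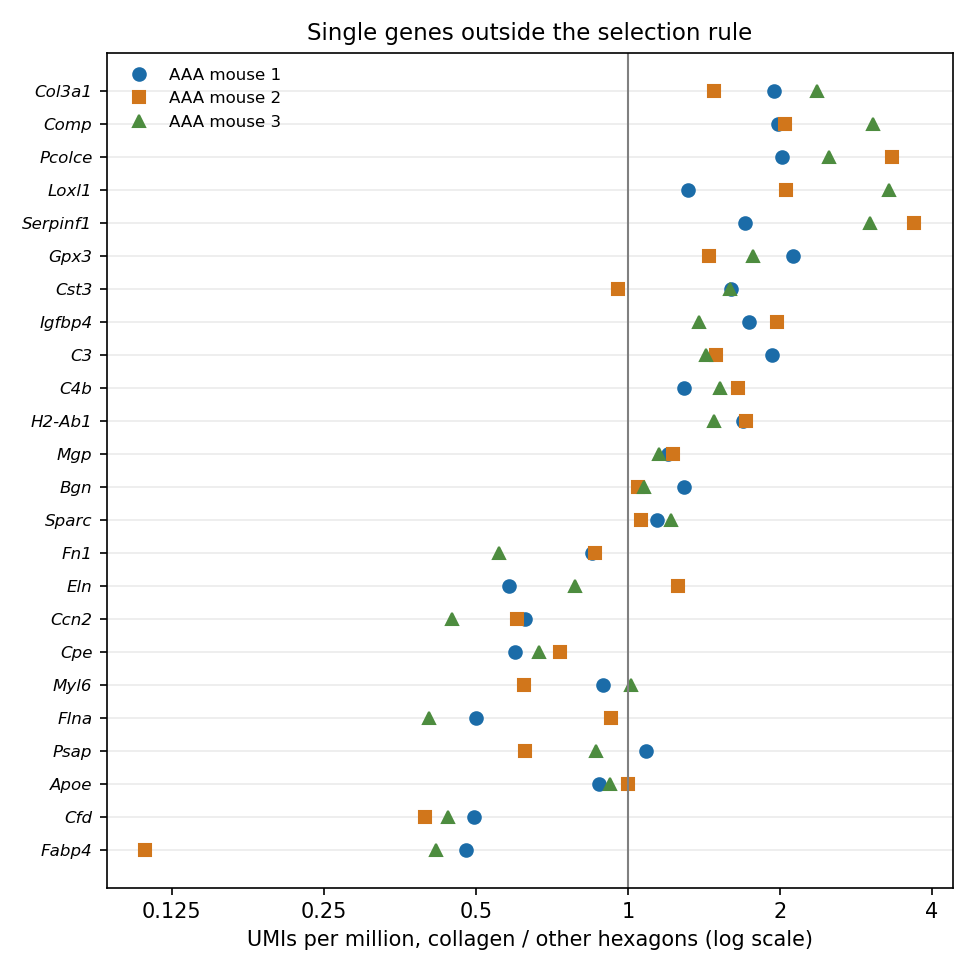
CPM in collagen hexagons divided by CPM in other kept hexagons (log x axis) for 24 single genes outside the rule, in AAA mice 1, 2 and 3. Col3a1, C3 and Igfbp4 are above 1 and Fn1, Ccn2, Cpe, Cfd and Fabp4 are below 1 in all 3 mice, while Eln, Cst3, Psap and Myl6 lie on both sides.

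Set against contractile hexagons in place of the whole remaining wall, several ratios were larger. Comp had ratios of 4.49, 5.11 and 8.45 in AAA mice 1, 2 and 3, on only 7, 2 and 3 UMIs in the contractile hexagons. Igfbp4 had ratios of 2.64, 3.11 and 2.24, Gpx3 3.81, 1.73 and 2.26, C3 2.81, 1.86 and 1.57 and Col3a1 2.36, 1.29 and 2.86. H2-Ab1 had ratios of 3.04, 2.26 and 2.00. Mgp did not separate the 2 classes, at 0.905, 0.982 and 1.02, and Eln and Fn1 were higher in contractile hexagons, at 0.328, 0.787 and 0.508 for Eln and 0.451, 0.938 and 0.363 for Fn1.

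Molecules that the rule did not use came from UMIs that fall on a gene but not on its exons, that is, the whole-gene count less the exonic count in the same hexagons. Dcn was the only rule gene with more than 6 of them in the collagen hexagons of any mouse. Hexagons chosen in part on exonic Dcn UMIs favour other Dcn molecules too, so these values are a description. It had 113, 20 and 40 such UMIs in the collagen hexagons of AAA mice 1, 2 and 3, which gave 1368, 1174 and 1728 CPM of such UMIs, against 625, 518 and 534 CPM in their other hexagons. All 3 mice had the higher value in the collagen hexagons. In the other hexagons of control mice 1, 2 and 3 the level was 405, 217 and 200.4 CPM, below that of every AAA mouse. The collagen hexagons of control mice held 4, 0 and 0 of these UMIs. Col1a1, Col1a2, Lum and Fbln1 gave at most 6 such UMIs in any mouse's collagen hexagons. Fbln1 had 36.3, 117 and 43.2 CPM of them there in AAA mice 1, 2 and 3, on 3, 2 and 1 UMIs. In their other hexagons it had 55.8, 47.5 and 45.2 CPM, on 31, 11 and 11 UMIs. It was thus lower in the collagen hexagons of mice 1 and 3 and higher in those of mouse 2.

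The collagen hexagons lay together. In AAA mice 1, 2 and 3, another collagen hexagon lay within 45 μm of 86.2%, 78.1% and 74.4% of them, against 44.8%, 31.0% and 33.2% of the other kept hexagons. Neighbouring hexagon centres are 20.8 μm apart, and this was the median distance from a collagen hexagon to the next in all 3 AAA mice, so the typical collagen hexagon touched another. Contractile hexagons were within 45 μm of 31.2%, 46.9% and 27.5% of collagen hexagons, against 37.1%, 34.4% and 42.9% of other hexagons, which was lower in mice 1 and 3 and higher in mouse 2. Hexagons with 2 or more UMIs of macrophage genes were within 45 μm of 77.2%, 84.4% and 50.2%, against 55.7%, 60.1% and 48.5% of other hexagons. A fixed count of 2 UMIs is reached more readily by a deeper hexagon. Other hexagons that touched a collagen hexagon had medians of 91, 107 and 75 UMIs, against 69, 68 and 67 beyond 90 μm. The part of depth in these shares was not tested. Hexagons are not independent along the wall and these shares carry no test.

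**Figure D4:**
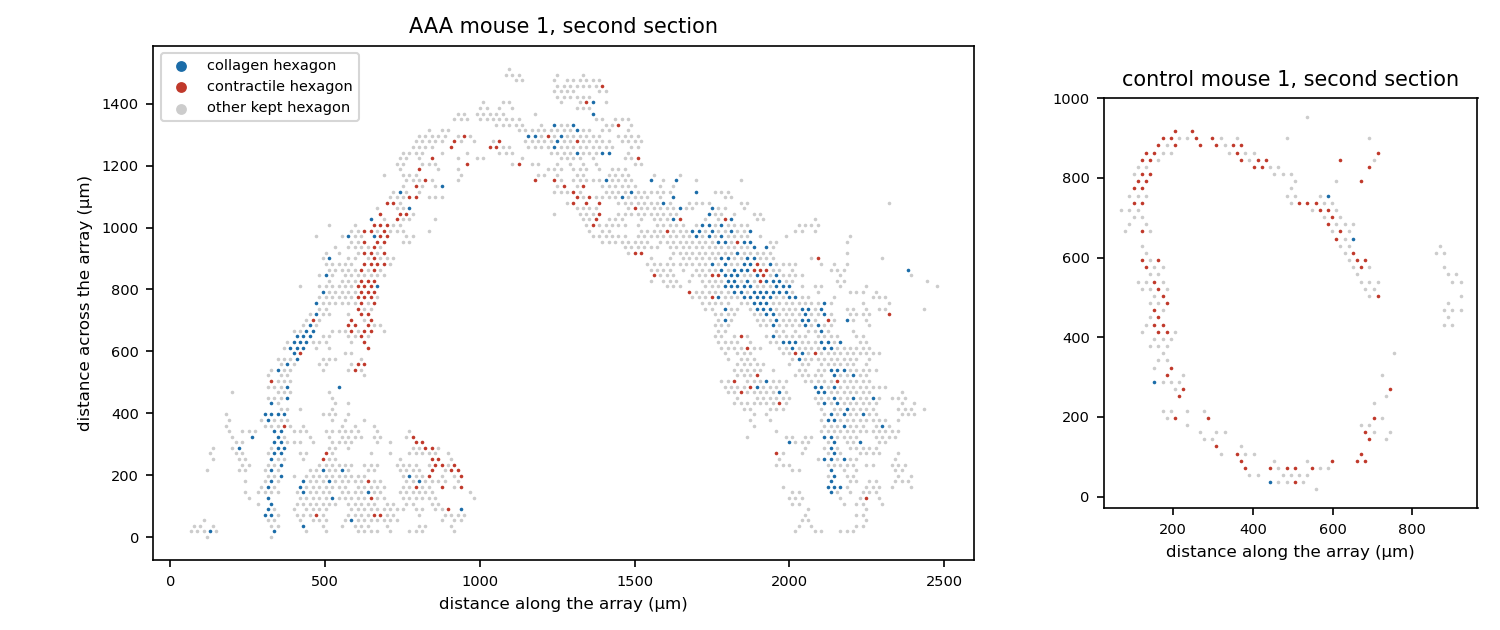
Kept hexagons of the second section of AAA mouse 1 (left) and of control mouse 1 (right) at their positions on the array in μm; each dot is a hexagon, blue for collagen, red for contractile and grey for the rest. The AAA section has 246 collagen hexagons among 2005, in runs and patches, and the control section has 4 among 250.

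The other hexagons changed in composition with distance from the collagen hexagons. None of these hexagons met the rule, but hexagons just under its threshold are among them, and their classes were set by the position of collagen hexagons, so the values are a description. Col3a1 had 7256, 6704 and 9244 CPM in other hexagons that touched a collagen hexagon in AAA mice 1, 2 and 3, 5454, 5224 and 6255 at 26 to 90 μm, and 4350.5, 4072 and 4599 beyond 90 μm. The order was the same in all 3 mice. Igfbp4 had 3822, 3962 and 2695 in touching hexagons and 1756, 2417 and 1411 beyond 90 μm, and Gpx3 had 1661, 1884 and 889 in touching hexagons and 602, 835 and 545 beyond 90 μm. Cst3 had 6732, 5485 and 8112 in touching hexagons and 3814, 4409 and 3473 beyond 90 μm. These 4 genes of fibroblasts and their secreted products were thus higher next to the collagen hexagons than far from them in each mouse.

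Elastin, fibronectin and contractile genes ran the other way. Eln had 853, 609 and 862 CPM in touching hexagons of AAA mice 1, 2 and 3, and 1708, 1245 and 2501 beyond 90 μm. Fn1 had 2334, 2161 and 2910.5 in touching hexagons and 3627, 2900.0 and 4729.6 beyond 90 μm. The rule gene Acta2, here on the scale of UMIs outside the rule genes, had 3299, 2576 and 4770.0 in touching hexagons and 5741, 4379 and 7409 beyond 90 μm. Gpnmb also had its highest level beyond 90 μm, at 870.1, 1509 and 1446, against 344, 831 and 943 in touching hexagons. Ctsb had 1085, 1219 and 943 in touching hexagons and 1366, 1611 and 1612 beyond 90 μm. Lyz2, another macrophage gene, had 1100, 803 and 674 in touching hexagons and 789, 1509 and 818 beyond 90 μm, so mouse 1 went the other way. Mgp had 13816, 12272 and 19942 in touching hexagons and 12897, 13284 and 19985 beyond 90 μm. The touching hexagons were deeper, with medians of 91, 107 and 75 UMIs, against 69, 68 and 67 beyond 90 μm, and the part of depth in these levels was not tested. Alb had 8273, 8505 and 8273 in touching hexagons and 9311, 8627 and 8060.5 beyond 90 μm.

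**Figure D5:**
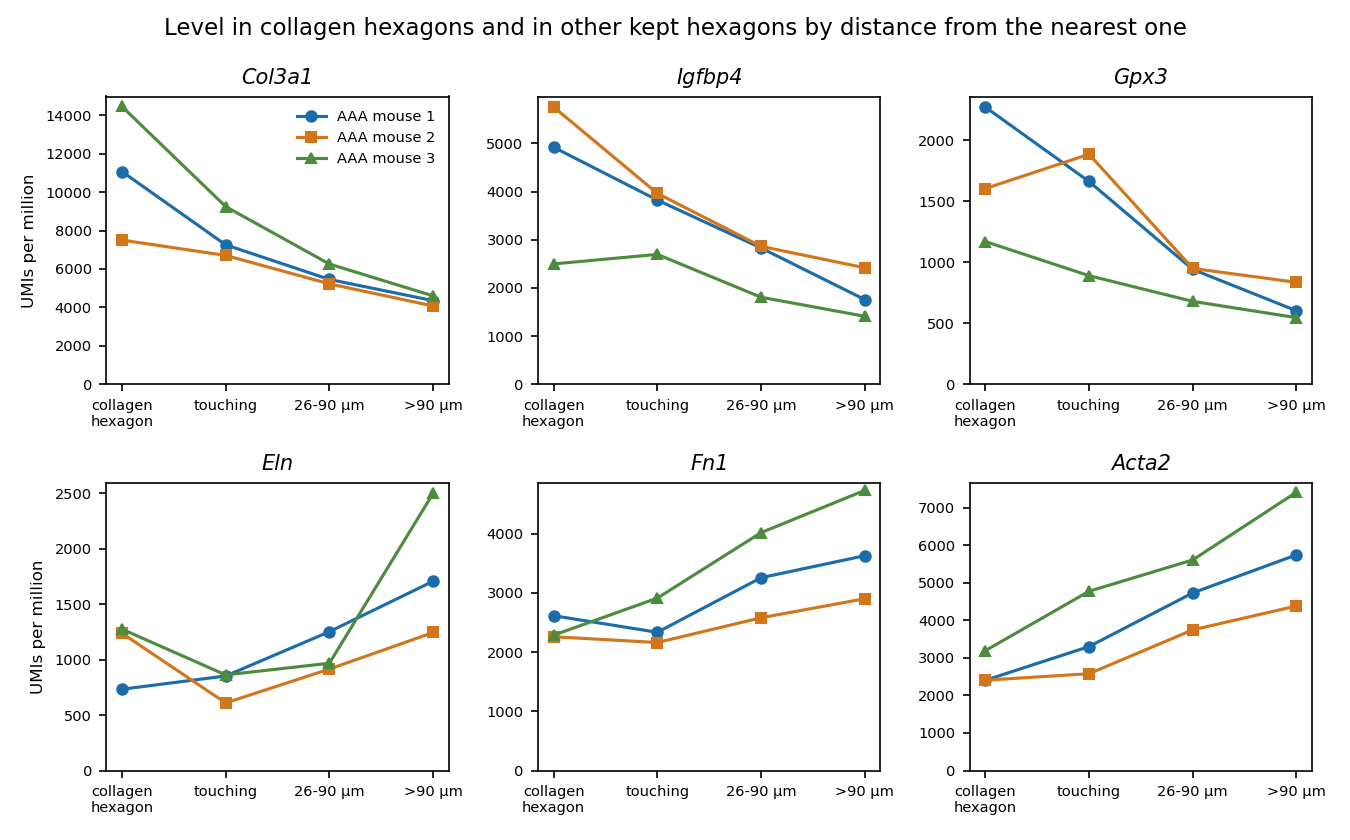
CPM of all UMIs other than those of the 10 rule genes (y axis) for 6 genes, in collagen hexagons and in other kept hexagons that touch one, lie 26 to 90 μm away or lie farther away (x axis), for AAA mice 1, 2 and 3. Col3a1 is lower at each step in all 3 mice, and Fn1 and Acta2 are highest in the hexagons farther than 90 μm.

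Values on both sides of the threshold describe the rule and carry no test. In AAA mice 880 hexagons had 2 collagen UMIs above their contractile sum and so fell just outside, with a median of 86 UMIs, and 436 had 3 and fell just inside, with a median of 101.5 UMIs. Col3a1 had 9666 CPM just inside, against 8394 just outside. It had 11437 at a sum of 4 or 5 and 13499 at 6 or more. C3 had 3236 just inside, against 3189 just outside, and reached 5524 at 6 or more, and Gpx3 had 1628 just inside, against 1313 just outside, and 2999.8 at 6 or more. Cfd ran the other way, at 2798 just inside, against 4092 just outside, and 2268 at 6 or more. The pooled values hide differences between mice: Col3a1 had 8669, 7597 and 14311 CPM just inside in mice 1, 2 and 3, against 8919, 6560.1 and 8673 just outside. A further 26 hexagons had 3 or more collagen UMIs but as many or more contractile ones.

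The collagen hexagons were not uniform in which rule genes brought them in. Type I collagen UMIs were ahead of the summed Dcn, Lum and Fbln1 UMIs in 388, 58 and 155 of the collagen hexagons of AAA mice 1, 2 and 3 (64.7%, 60.4% and 74.9%), and Dcn, Lum and Fbln1 were ahead in 160, 33 and 40 (26.7%, 34.4% and 19.3%). The rest were equal. Between these subsets, C3 was lower where type I collagen was ahead, with ratios of 0.664, 0.488 and 0.579 in the 3 mice, as was Igfbp4, at 0.788, 0.672 and 0.890. Ltbp2 was higher there, at 1.82, 1.67 and 2.09, but the subset with Dcn, Lum and Fbln1 ahead held only 14, 2 and 2 Ltbp2 UMIs. Ratios of Mgp were 1.39, 1.35 and 0.900 and of Col14a1 0.586, 2.23 and 0.994, which differed in direction between mice. The subsets were split on the rule genes after their values were known, and these 5 genes were named after the ratios of the 116 genes with 100 or more UMIs had been seen, so they are a description.

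Across the 10 AAA sections, Col3a1 in collagen hexagons was 11731, 9404 and 14412 CPM in the sections of mouse 1, and 14336, 14603, 8310.2 and 17870.2 in those of mouse 3. In mouse 2 it was 6235 and 8346 in the first section and the last, and 0 UMIs were found in the other, which had 5 collagen hexagons. Sections of 1 mouse thus spread widely, and those of mice 1 and 3 overlapped. Igfbp4 was 5189, 5449.9 and 2702 in the sections of mouse 1 and 2190.1, 2833, 2770.1 and 2918 in those of mouse 3. The mouse with the highest Col3a1 therefore had the lowest Igfbp4, and its C3 was also lowest, at 2444 CPM against 4742 and 3788 in mice 1 and 2. With 3 mice, no relation between these genes was tested.

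Within collagen hexagons, AAA and control mice could be compared for few genes, because the control sums were 907, 361 and 223 UMIs outside the rule genes in control mice 1, 2 and 3, against 84568, 13729 and 18819 in AAA mice 1, 2 and 3. Of 61 genes tested by edgeR's quasi-likelihood test with Benjamini-Hochberg adjustment, 0 (0%) passed an adjusted p of 0.05, 4 had an unadjusted p under 0.05, and DESeq2 called 1, the ribosomal protein gene Rps14, lower in AAA. Col3a1 had 936, 103 and 272 UMIs in AAA mice 1, 2 and 3, against 6, 3 and 2 in control mice 1, 2 and 3, with a log2 fold change of 0.86 (SE 0.561, adjusted p = 0.720 in edgeR). Igfbp4 had 2, 0 and 1 UMIs in control mice, with 1.40 (SE 0.714, adjusted p = 0.634 in edgeR), and Mgp 21, 4 and 3, with 0.27 (SE 0.541, adjusted p = 0.907 in edgeR). These calls depended on the gene minimum. With 75 or more genes per hexagon, where control mouse 3 had no collagen hexagon, 4 genes were called higher in AAA: Col3a1 (log2 2.27, adjusted p = 0.0316 in edgeR), Mgp (log2 1.93, adjusted p = 0.0316 in edgeR), Actb and Rplp1.

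A further fit asked whether the difference between AAA and control was the same in collagen hexagons and in the other kept hexagons. In edgeR 21 of 539 genes (3.90%) passed an adjusted p of 0.05, all with a positive interaction, that is, an AAA over control ratio that was higher in collagen hexagons than in the others under TMM scaling, among them Bgn (log2 2.32, SE 0.679, adjusted p = 0.0441) and Actb (log2 2.17, SE 0.601, adjusted p = 0.0418). This result depended on the scaling. The TMM factors of the control collagen sums were 1.56, 2.79 and 4.58 in control mice 1, 2 and 3, against 0.720, 0.765 and 0.692 in AAA mice 1, 2 and 3. Scaling by library size alone gave 0 calls (16 genes at an unadjusted p under 0.05) and DESeq2 gave 0 (8 genes), and 9 of the 21 genes had no UMI in control collagen hexagons. There were also 0 calls without AAA mouse 1, against 46 without AAA mouse 2, 52 without AAA mouse 3, and 13, 9 and 27 without control mice 1, 2 and 3. Alb and Mptx1 were among the 21 genes. A positive interaction under TMM is not a higher level: Alb had 7787 CPM in the pooled AAA collagen hexagons, against 9389.7 in the pooled control collagen hexagons. In the pooled other hexagons it had 8916 CPM in AAA, against 9514 in control. On the CPM scale the AAA over control ratio of Alb was thus not higher in collagen hexagons than in the others.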

How the data were processed

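Spatial transcriptomes of 20 sections from 3 AAA and 3 control aortas were analysed. The authors deposited UMI counts per gene and barcode, aligned with STARsolo 2.7.5c to mm10 per the labels, as a single matrix of 32285 genes and 9837644 barcodes that pools both aorta libraries; no normalization was applied to these deposited counts. Exonic counts were used, and counts over whole genes were an alternative. GEO's labels put both conditions in each library, so the condition and mouse of each section were read from the layout of the sections drawn in the study's supplement, and every comparison between mice rests on that layout. No barcode occurred more than once.

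UMIs were summed in hexagons of 12 μm side (26.6 position units per μm). Genes starting with mt or Gm (8551) were dropped, and hexagons with 50 or more genes were kept. Counting errors are large at this depth, since a hexagon holds few UMIs of any gene. Sections were pooled per mouse, and whether p-values cover more than the spread between these 6 mice cannot be told. Shares were compared by an exact two-sided permutation test over mice. Sums per mouse were tested with edgeR 4.0.16 (quasi-likelihood, TMM, filterByExpr, Benjamini-Hochberg over all genes tested, adjusted p of 0.05), with limma 3.58.1 and R 4.3.3, after a check on simulated data; DESeq2 1.42.0 was an alternative. The 10 genes of the rule were left out of these tests. Python 3.11.15 with numpy 2.4.6, pandas 2.3.3, scipy 1.17.1 and matplotlib 3.10.9 was used.

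Genes named in the text were the 10 genes of the rule, up to 4 genes per list with the highest UMI sum in collagen hexagons, and up to 20 genes with the largest ratio among those with 50 or more UMIs in the collagen hexagons of each AAA mouse; the other genes named were chosen after their values were seen. The members and the gene lists were chosen with earlier results of these data known. Thinning to 50 UMIs and section windows narrowed by 50 μm were added after seeing the data; the other alternatives varied the gene and UMI minimums, the contractile condition, the grid origin, the scaling, the filter, the tool, the pairing and the mice included.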

Additional observations from a re-analysis of the deposited data

Results flagged for a closer look

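Outside the 20 sections, 44 hexagons met the same rule in the area of the array to the left of the first section, out of 2609 hexagons there with 50 or more genes (1.69%), a share above the 1.38% of the control mouse with the highest share. This area is in no section of the layout and entered no comparison. On the other lane of the array 37 of 15034 such hexagons (0.246%) met the rule, and between the sections 0 of 10.

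For 21 of 539 genes, edgeR's interaction test under TMM scaling called the AAA difference unlike in collagen hexagons and in the other kept hexagons. Scaling by library size alone gave 0 calls, and DESeq2 gave 0. The median log2 value of all 539 genes was 1.90 with TMM, against 0.19 with library size alone. All 21 had a positive interaction under TMM scaling, which does not mean a higher level in AAA collagen hexagons. Alb had 7787 CPM there, against 9389.7 in control collagen hexagons, and 8916 against 9514 in the other hexagons. Its AAA over control ratio on the CPM scale was thus not higher in collagen hexagons. Of the 21 genes, 7 encode ribosomal proteins. In the control collagen hexagons 9 had no UMI, 7 had 1 to 3 UMIs and 5 had 4 or more UMIs.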

How the results depend on the processing

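The share of collagen hexagons stayed higher in AAA than in control mice under all 16 alternatives. The difference was 1.82 to 18.9 percentage points of kept hexagons in 15 of them, and 46.0 points where the denominator was hexagons with 3 or more collagen or contractile UMIs; leaving out a mouse gave 5.13 to 8.11 (exact permutation p = 0.2, the smallest p then possible). The mean Col3a1 ratio over AAA mice ranged over 1.79 to 2.23 under 7 alternatives. Under the same alternatives the mean ratio was 1.56 to 1.90 for Igfbp4, 1.48 to 1.99 for C3 and 1.12 to 1.45 for Mgp. With 5 or more collagen UMIs the Mgp ratio was 1.49, 0.782 and 1.09 in AAA mice 1, 2 and 3, so mouse 2 went the other way. Within collagen hexagons, the 0 genes called between AAA and control mice became 4 with 75 or more genes per hexagon (Col3a1, Mgp, Actb and Rplp1), where control mouse 3 had no collagen hexagon, 2 with UMIs over whole genes, 1 with DESeq2 and 96 of 12929 without a filter on low counts. With the pair of aortas embedded together as a replicate block the count was 0, and leaving out any control mouse gave 0. The fit without AAA mouse 2 also gave 0 but tested only 2 genes. The fits without AAA mouse 1 and without AAA mouse 3 could not be made because too few genes passed the filter. The 21 genes of the interaction test became 5 with 75 or more genes, 297 with UMIs over whole genes, and 0 with the grid moved, with section windows narrowed, with library size alone and with DESeq2; leaving out a mouse gave 0 to 52. Except for library size, where the median log2 value of all genes was 0.19 against 1.90 with TMM, the cause was not tested. The share of collagen hexagons with another within 45 μm, 79.6% over AAA mice, was 61.0% with 5 or more collagen UMIs, 61.0% within 25 μm and 91.0% within 90 μm. Depth limits all comparisons inside the 17 control collagen hexagons.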
